A study of Mus musculus with 6 samples.

Results

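The genes described here are 40 genes of the actin cytoskeleton and cell motility, out of 35598 genes in the tables. They were selected by gene symbol, with values of these same data in view, and cover actin and its monomer-binding proteins, the Arp2/3 complex, capping and severing proteins, and non-muscle myosin and tropomyosin, among others. The differences between age groups below are therefore a description of the list and support nothing beyond it. The symbol Myl12b is carried by 2 identifiers, so 41 identifiers matched, and the one with more reads was used. The cells were central nervous system-associated macrophages (CAMs), which sit at the borders of the brain, sorted from brains of male C57BL/6 mice (Janvier Labs) as negative for CD3 and positive for CD11b, CD45 and CD206. RNA sequencing covered 3 libraries from young mice of 2 months and 3 from aged mice of 18 months, with no other treatment or allele named, and the question was how the CAM transcripts differ with age. Nothing in the labels states that each library is a separate animal. The p-values thus reflect the scatter among 6 libraries, part or all of which may be technical. Because the cells were sequenced in bulk, fewer cells of a type and less RNA per cell cannot be told apart.

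Actin filaments grow from monomers held in solution by thymosins and profilin. The Arp2/3 complex starts new branches when it is switched on by WASP family proteins, which are themselves under the control of Rac and Cdc42, while capping proteins stop growth at the fast-growing end and cofilin cuts old filaments. Macrophages use this cycle for ruffles, phagocytosis and crawling, and border macrophages and microglia extend and retract processes with it.

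Some actin genes are under the control of serum response factor (SRF), which binds the CArG box and responds through its cofactors to the pool of free actin. RefSeq promoters (GRCm38.p6, 250 bases before to 50 after the start) were found for 36 of the 40 genes, and the CArG box was searched on both strands. It was present in 3 of the 36 (8.33%), against 1.81% of the 27025 genes in the table. A gene counted where any of its listed promoters matched, and the 36 genes had 47 promoters. The 3 genes were Arpc4, Myl6 and Actg1, and 100 bases around each box are shown 5′ to 3′ along the gene, with the box in capitals, because it is the one sequence feature here tied to actin gene control.
Arpc4, chr6:113377863-113377962, plus strand: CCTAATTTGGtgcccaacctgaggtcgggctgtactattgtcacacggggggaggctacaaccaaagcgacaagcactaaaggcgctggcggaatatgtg
Myl6, chr10:128493040-128493139, minus strand: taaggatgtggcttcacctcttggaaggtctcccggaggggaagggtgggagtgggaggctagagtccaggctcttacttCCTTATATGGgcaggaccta
Actg1, chr11:120348546-120348645, minus strand: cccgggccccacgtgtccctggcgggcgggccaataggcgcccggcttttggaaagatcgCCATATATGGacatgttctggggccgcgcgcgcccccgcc
The box opened 250 bases before the listed start of Arpc4, at the edge of the window, 50 before that of Myl6 and 90 before that of Actg1. The listed start of Myl6, chr10:128493009, lies within the annotated gene, which opens at 128494145 on the minus strand. The fitted values of these 3 genes did not share a sign. Actg1 was higher in every aged library, while the libraries of Arpc4 and of Myl6 overlapped, with log2 fold changes of 0.24 (SE 0.45) and -0.35 (SE 0.33). The GC box GGGCGG, searched on both strands, was found for 29 of the 36 genes (80.6%, against 38.2% of all genes). TATAAA was in 4 (11.1%, against 15.7%) and GAGGAAG, the core of a PU.1 site, in 7 (19.4%, against 15.4%), also on both strands. Actb, Rac1, Rac2 and Coro1b were not among the matched promoters. These matches describe letters in a window and not bound sites.

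The libraries held 26605079 to 33306121 counts, and 9875 to 12543 genes had at least 5 counts. Levels are read counts scaled to library depth with TMM factors (CPM). A log2 fold change compares aged with young libraries, above 0 where the aged were higher, and comes with its standard error (SE) from edgeR. All 40 genes passed the low-count filter, and 32 had a mean of at least 50 CPM. Was and Capg were above the filter level of 0.33 CPM in every aged library but not in every young one, and Ezr was under it in a library of each age. All 10 border macrophage markers had over 3 counts in every library. All 10 microglia markers did too, so this count cannot check the sort label. Mrc1, which encodes CD206, stood at 2770, 2940 and 2675 CPM in the young libraries, against 2345, 1182 and 1306 in the aged. The marker sums moved with age. Border macrophage markers summed to 22230 to 25486 CPM in the young libraries and 7256 to 15612 CPM in the aged, while the 10 microglia markers summed to 5046 to 7725 CPM in the young and 9865 to 17022 CPM in the aged. Aged library 2 was lowest in the first sum and highest in the second. The microglia sum was above the border macrophage sum in aged library 2 (17022 against 7256 CPM) and aged library 3 (13580 against 13229 CPM). It was below it in the other libraries. Taken singly, 4 of the 10 border macrophage markers were lower in every aged library, 1 was higher (Cd38) and 5 overlapped, while 7 of the 10 microglia markers were higher and 3 overlapped. Among single genes, log2 fold changes without aged library 2 are given for Coro1a and Coro1b only. For Tmsb4x, Actg1 and Wdr1, where this library also stood apart, the range over all settings is given instead. Aged library 2 stood apart for other genes too, among them Arpc4 and Aif1, whose signs turned without it. The part of the change in marker sums was not tested.

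None of the 40 genes was called higher or lower with age by edgeR's quasi-likelihood test at an adjusted p under 0.05, where 0.00938% of the 10661 genes tested were called higher and 0% lower. At an unadjusted p under 0.05, 9 of the 40 were higher and 0 lower, beside 3.63% and 2.04% of all genes tested. The 9 were Actg1, Pfn1, Arpc5, Capza2, Capzb, Cfl1, Lcp1, Rhoa and Cdc42. Limma-voom called 0 of the 40, and 0 of all genes in either direction. The DESeq2 Wald test called 1, Cfl1, with an adjusted p of 0.0498, beside 1.21% of its 9634 genes called higher and 0.426% called lower. EdgeR without the low-count filter also called 1, Cfl1, with an adjusted p of 0.000692, beside 0.225% of 22680 genes called higher and 0.0485% called lower. Restricted to genes averaging 50 CPM or more, edgeR called 0 of 32 members, beside 0.87% of 2185 genes called higher and 0.275% called lower.

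For 8 of the 40 genes every aged library lay above every young one, and for 1 every aged library lay below, beside 7.54% and 7.19% of all genes tested. The 8 were Actb, Actg1, Arpc5, Capza2, Capg, Coro1b, Cdc42 and Myl12b, and the 1 was Arpc3. Of the 32 members averaging 50 CPM or more, 7 were higher and 1 lower without overlap, beside 11.2% and 8.45% of 2189 such genes, or 19.6% in either direction. The median log2 fold change of the 40 was 0.38, beside -0.02 over all genes tested. The fitted value was above 0 for 27 of the 40, beside 49.3% of all genes tested, and for 23 of the 32, beside 47.2% of such genes. By role, the median was 1.02 for the 6 genes of actin and monomer binding and 0.95 for the 9 capping, severing and turnover genes. It was -0.03 for the 8 subunits of the Arp2/3 complex, -0.01 for the 4 cross-linking and cortex genes, 0.38 for the 6 myosin and tropomyosin genes and -0.70 for the 2 WASP genes.

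**Figure D1:**
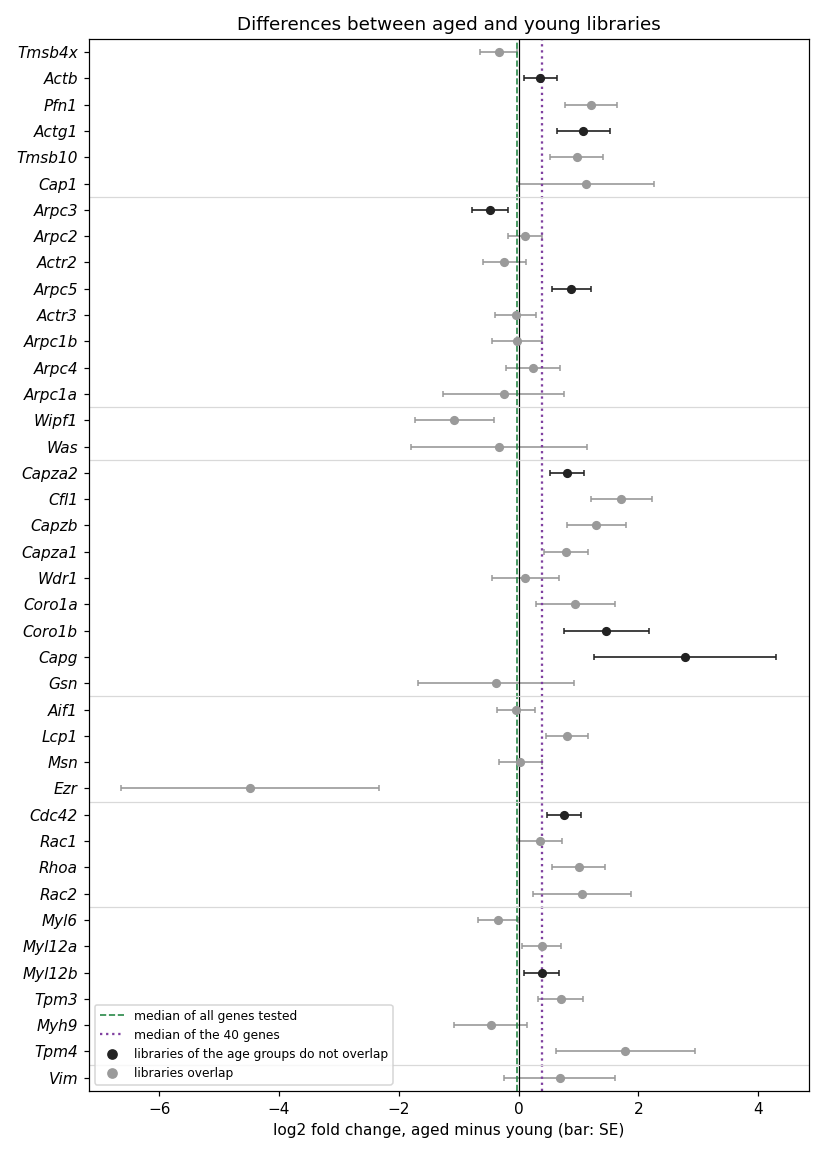
Log2 fold change of each of the 40 genes (aged minus young, x axis) with its SE as a bar, grouped by role. Black points mark the 9 genes whose aged and young libraries do not overlap, and the dotted line at 0.38 is the median of the 40 beside the dashed line at -0.02 for all genes tested.

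The thymosin Tmsb4x, whose product holds actin monomers, was by far the most abundant of the 40 transcripts. As a level per length (TPM), it stood at 25820, 33102 and 29111 in the young libraries, against 26060, 22840 and 30641 in the aged. It ranked from the second to the fifth of all genes in a library and made up 56.3% to 73.1% of the TPM of the 40 genes. In CPM it stood at 33491, 40197 and 35710 in the young libraries, against 31803, 17871 and 37002 in the aged, with a log2 fold change of -0.34 (SE 0.31, adjusted p = 0.993, edgeR). Aged library 2 was the lowest, and the others of both ages overlapped. Over all the settings tried the log2 fold change of Tmsb4x ranged from -0.55 to -0.08. The 40 genes together took 3.65% to 4.53% of the TPM of a library, with the ages overlapping. Without Tmsb4x, the other 39 took 1.31%, 1.42% and 1.34% of the counts of the young libraries and 1.51%, 2.24% and 1.88% of the aged, with no overlap. In TPM the shares of the 39 overlapped, at 1.07% to 1.22% in the young and 1.18% to 1.77% in the aged.

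Actb, the gene of cytoplasmic beta-actin (mm10, chr5:142903115-142906754; gene coordinates here are those of GENCODE M21), stood at 3063, 2974 and 2692 CPM in the young libraries, against 3109, 4645 and 3439 in the aged. The groups did not overlap in CPM, but young library 1 and aged library 1 lay close together, and they overlapped when scaled by library totals or by the genes averaging 50 CPM or more. The log2 fold change was 0.36 (SE 0.27, adjusted p = 0.990, edgeR). In TPM the groups overlapped and the order of the means turned, at 4233 ± 797 (SD, n = 3) in the young and 3873 ± 710 (SD, n = 3) in the aged. The effective length that the authors' tables gave Actb ranged from 238 to 644 bases between libraries, and it was longest in aged library 2.

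Actg1, the gene of cytoplasmic gamma-actin (chr11:120345690-120348542), stood at 295, 269 and 162 CPM in the young libraries. In the aged libraries it stood at 315, 850 and 370 CPM. All aged libraries were above all young ones, with aged library 2 far above the rest and the first of each age close together. The log2 fold change was 1.08 (SE 0.44, adjusted p = 0.817, edgeR), and it ranged from 0.51 to 1.59 over all the settings tried. The TPM ratio of Actb to Actg1 was 56.5, 71.9 and 86.4 in the young libraries, against 45.6, 8.26 and 25.4 in the aged. The ratio was lower in each aged library than in each young one, and as a ratio of TPM it depends on the effective lengths as well as on the reads. The 2 coding sequences are of equal length, 1125 bases, and were identical at 88.6% of positions.

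Pfn1 encodes profilin 1, which loads actin monomers onto growing ends. It stood at 268, 360 and 183 CPM in the young libraries, against 296, 836 and 735 in the aged, with a log2 fold change of 1.20 (SE 0.44, adjusted p = 0.753, edgeR). Aged library 1 lay within the young range and the other 2 aged libraries above it. Tmsb10, a second thymosin with a coding sequence 71.0% identical to that of Tmsb4x over the aligned part, stood at 90.0, 70.4 and 105 CPM in the young libraries, against 173, 92.2 and 254 in the aged. Here aged library 2, the highest for Pfn1, lay within the young range. In TPM, Tmsb10 did not overlap between ages. Cap1, whose product recycles monomers from cofilin, ranged from 4.84 to 15.3 CPM in the young and 4.90 to 39.9 CPM in the aged libraries. Cap1 overlaps Ppt1 on the opposite strand, which held more reads, at a mean of 379 CPM. The library kit does not mark strand, so the reads of the overlap cannot be told apart.

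**Figure D2:**
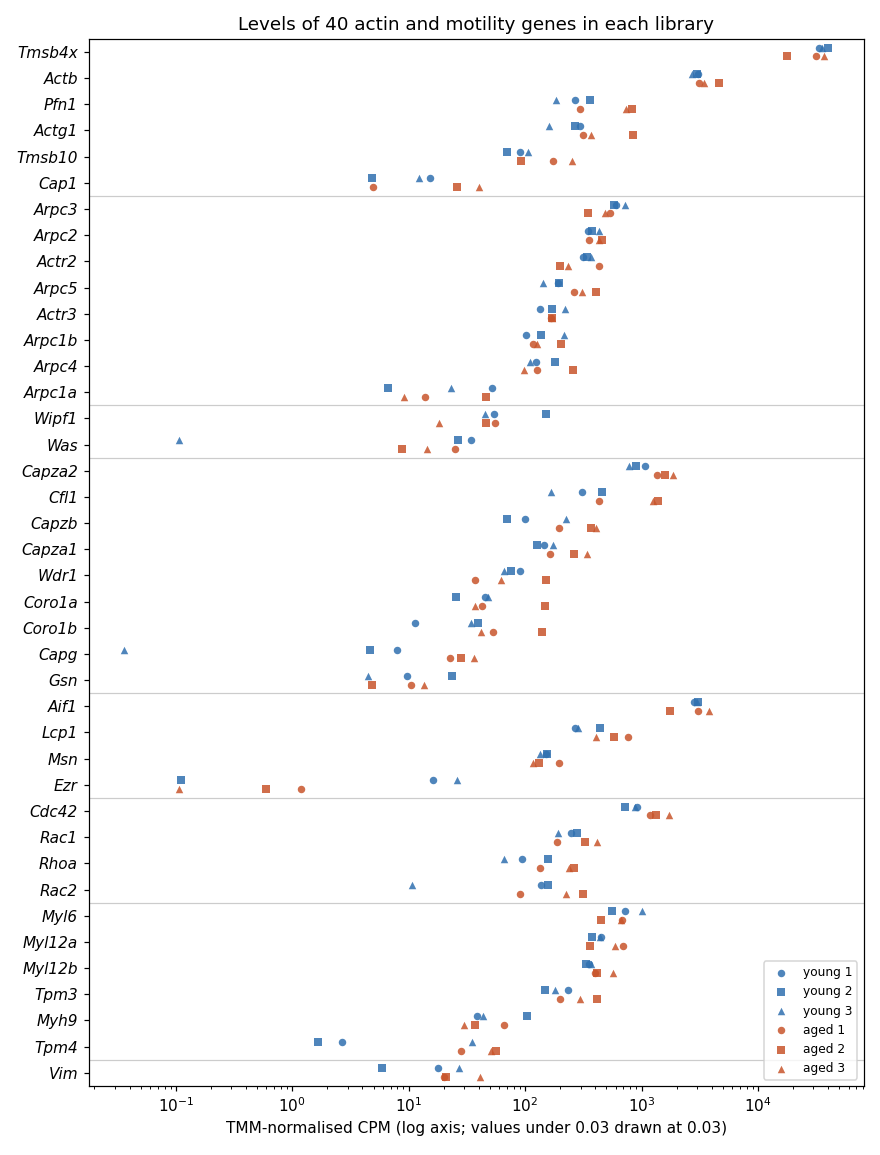
TMM-scaled CPM of the 40 genes on a log axis, 1 point for each library, with young libraries in blue and aged libraries in orange and grouped by role. Tmsb4x lies between 17871 and 40197 CPM, while Capg and Was each have 1 young library near 0 and Ezr has a library near 0 in both ages.

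The 8 genes of the Arp2/3 complex include both forms of its ARPC1 subunit. Arpc5 was the 1 gene of the 8 that was higher in every aged library, and Arpc3 the 1 that was lower. Arpc5 (chr1:152766542-152775597) stood at 192, 196 and 143 CPM in the young libraries, against 265, 406 and 306 in the aged, with a log2 fold change of 0.88 (SE 0.32, adjusted p = 0.765, edgeR). Arpc3 (chr5:122391878-122414184) stood at 605, 577 and 715 CPM in the young libraries, against 534, 344 and 488 in the aged, with a log2 fold change of -0.47 (SE 0.30, adjusted p = 0.950, edgeR). Arpc5 was highest and Arpc3 lowest in aged library 2, so the 2 genes parted most in that library. In TPM, too, Arpc5 was higher and Arpc3 lower in every aged library.

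Arpc2, whose product is part of the core of the complex, varied least of the 40 within a group. It stood at 345, 375 and 430 CPM in the young libraries, against 355, 455 and 428 in the aged, with a within-group SD of 0.17 on the log2 scale. Its groups overlapped throughout and the log2 fold change was 0.11 (SE 0.28). The actin-related proteins themselves, Actr2 (ARP2) and Actr3 (ARP3), also overlapped between ages. Actr2 ranged from 313 to 365 CPM in the young libraries and 200 to 430 CPM in the aged, and Actr3 from 135 to 218 CPM and 166 to 170 CPM. Arpc4 ranged from 109 to 179 CPM in the young and 98.8 to 260 CPM in the aged.

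The 2 ARPC1 genes, 75.2% identical in coding sequence, differed in level and in steadiness. Arpc1b, the form known from blood cells, stood at 101, 138 and 215 CPM in the young libraries, against 117, 204 and 127 in the aged. Arpc1a stood at 52.3, 6.63 and 23.0 CPM in the young, against 13.9, 45.8 and 9.05 in the aged. Neither separated the ages, and the within-group SD of Arpc1a was 1.29 on the log2 scale. Per length, Arpc1b was at 1.04 to 20.4 times Arpc1a, so it was the higher in every library.

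Was, the blood-cell activator of Arp2/3, stood at 34.2, 26.5 and 0.107 CPM in the young libraries, the last from 3 counts, and at 25.2, 8.83 and 14.4 CPM in the aged. It had the largest within-group SD of the 40, 2.03 on the log2 scale, with young library 3 far under the other young ones. Wipf1, which encodes a WASP-binding partner, stood at 54.6, 151 and 45.5 CPM in the young, against 55.0, 46.0 and 18.2 in the aged. Its log2 fold change of -1.07 (SE 0.66, adjusted p = 0.950, edgeR) came with overlapping groups, young library 2 standing apart as the highest. Without that library it was -0.34.

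Capping protein is a pair of an alpha and a beta chain, and all 3 of its genes had a fitted value above 0. Capza2 (chr6:17636234-17666972), an alpha chain, stood at 1069, 904 and 774 CPM in the young libraries, against 1351, 1589 and 1871 in the aged. The lowest aged library was above the highest young one, and the log2 fold change was 0.81 (SE 0.28, adjusted p = 0.729, edgeR). Capza1, the other alpha chain, 77.2% identical to Capza2 in coding sequence, stood at 146, 127 and 174 CPM in the young, against 165, 261 and 343 in the aged. Aged library 1 lay within the young range of Capza1. Per length, Capza2 was at 7.32 to 18.9 times Capza1, and it was the higher of the pair in every library. Capzb, the beta chain, was taken for mention after its values were seen and stood at 99.4, 69.4 and 225 CPM in the young, against 195, 366 and 405 in the aged. Young library 3 lay above aged library 1. The log2 fold change was 1.29 (SE 0.49, adjusted p = 0.789, edgeR), or 1.94 without young library 3. It ranged from 0.99 to 2.21 over all the settings tried.

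Capg encodes a macrophage capping protein of the gelsolin family. It stood at 7.94, 4.69 and 0.0358 CPM in the young libraries, the last from 1 count, and at 22.4, 28.3 and 36.1 CPM in the aged. The aged libraries were all above the young ones, with a log2 fold change of 2.78 (SE 1.52, adjusted p = 0.929, edgeR), or 3.62 without young library 1. Gsn, the gene of gelsolin itself, ranged from 4.44 to 23.3 CPM in the young and 4.79 to 13.5 CPM in the aged. The ages overlapped for Gsn.

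Cfl1, the gene of cofilin 1 (chr19:5490455-5495201), had the lowest p of the 40. It stood at 311, 458 and 167 CPM in the young libraries, against 431, 1378 and 1262 in the aged. Aged libraries 2 and 3 were well above every young library, but aged library 1 lay under young library 2. The log2 fold change was 1.71 (SE 0.51), with an unadjusted p of 0.00738 and an adjusted p of 0.619 by edgeR. Over all the settings tried the adjusted p ranged from 0.000692 to 0.967, and the log2 fold change from 1.42 to 2.10. Relative to actin, the TPM of Cfl1 was 0.0341, 0.0445 and 0.0217 of the sum of Actb and Actg1 in the young libraries, against 0.0571, 0.215 and 0.197 in the aged. The same ratio for Pfn1 was 0.0420, 0.0469 and 0.0333 in the young, against 0.0522, 0.164 and 0.147 in the aged. In TPM both ratios were higher in each aged library, and least so in aged library 1. In CPM, which does not use the effective lengths, the ages overlapped. The Cfl1 ratio then ranged from 0.0586 to 0.141 in the young libraries and from 0.126 to 0.331 in the aged, and the Pfn1 ratio from 0.0640 to 0.111 and from 0.0865 to 0.193.

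Wdr1, the cofilin partner AIP1, overlapped between ages, at 66.1 to 89.9 CPM in the young and 36.8 to 151 CPM in the aged. Its log2 fold change was 0.11 (SE 0.56), and it ranged from -0.64 to 0.68 over all the settings tried. Without aged library 2, among other settings, it was below 0. The coronins act with cofilin and Arp2/3 in filament turnover, and their 2 genes here are 73.2% identical in coding sequence. Coro1b stood at 11.3, 39.5 and 34.3 CPM in the young libraries, against 52.7, 140 and 41.9 in the aged. The groups did not overlap in CPM, and the log2 fold change was 1.46 (SE 0.70, adjusted p = 0.895, edgeR), while in TPM they did. Scaled by library totals or by the genes averaging 50 CPM or more, they overlapped too. Without aged library 2 the log2 fold change was 0.74. Coro1a, the blood-cell coronin, stood at 45.1, 25.5 and 47.7 CPM in the young, against 42.2, 149 and 37.2 in the aged. Only aged library 2 was above the young range of Coro1a, and without that library the log2 fold change went from 0.95 to 0.01. Coro1a overlaps Bola2 on the opposite strand, which held more reads, at a mean of 142 CPM.

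Aif1 encodes IBA1, an actin-bundling protein used as a stain for brain macrophages. It was the third most abundant of the 40 in TPM and stood at 2817, 3067 and 3015 CPM in the young libraries, against 3082, 1762 and 3784 in the aged. Both the lowest and the highest library were aged, and the log2 fold change was -0.04 (SE 0.32, adjusted p = 0.997, edgeR). Lcp1, the gene of L-plastin, a bundling protein of blood cells, stood at 270, 444 and 287 CPM in the young, against 768, 576 and 405 in the aged. It was taken for mention after its values were seen. Aged library 3 lay under young library 2, and the log2 fold change was 0.81 (SE 0.35, adjusted p = 0.861, edgeR).

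Ezrin and moesin link filaments to the membrane, and their genes are 74.7% identical in coding sequence. Moesin (Msn) stood at 151, 155 and 133 CPM in the young libraries, against 197, 132 and 117 in the aged. Ezr stood at 16.1, 0.112 and 26.0 CPM in the young, against 1.18, 0.596 and 0.106 in the aged. The lowest young and the lowest aged library of Ezr each held 3 counts, and young library 2 lay within the aged range. The log2 fold change of Ezr, -4.48, was the farthest below 0 of the 40 but had an SE of 2.15 (adjusted p = 0.895, edgeR). It was -3.68 without young library 3 and -5.31 without aged library 1. Over all the settings tried it ranged from -5.31 to -1.155, the latter on log2(TPM + 1). In TPM, moesin stood at 15.1 or more and Ezr at 3.61 or less in every library.

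Cdc42 (chr4:137319696-137357720), which drives filopodia and switches on WASP, stood at 908, 724 and 872 CPM in the young libraries, against 1187, 1323 and 1712 in the aged. As for Capza2, the groups did not overlap, with a log2 fold change of 0.75 (SE 0.28, adjusted p = 0.775, edgeR). Rhoa, which controls contraction through myosin, stood at 93.9, 156 and 65.9 CPM in the young, against 133, 263 and 238 in the aged. Its aged library 1 lay under young library 2 in CPM, and in TPM the groups were apart.

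Rac1 and Rac2, which drive ruffling through the WAVE complex, are 78.4% identical in coding sequence. Rac1 stood at 249, 282 and 190 CPM in the young libraries, against 187, 326 and 411 in the aged, with the lowest library of all an aged one. Rac2, the blood-cell form, stood at 137, 157 and 10.6 CPM in the young, against 90.4, 315 and 227 in the aged. Young library 3 stood far below the rest, and the within-group SD of Rac2 was 1.64 on the log2 scale. The effective length of Rac2 in the tables ranged from 193 to 2809 bases, 14.5 times, so its TPM of 1.54 to 1050 holds that change as well as the change in reads.

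The contractile motor has a heavy chain, an essential light chain and regulatory light chains. Myl6, the essential chain, was the fourth of the 40 in TPM and stood at 716, 555 and 1007 CPM in the young libraries, against 677, 446 and 665 in the aged. The ages overlapped, with the highest library young and the lowest aged. Myh9, the heavy chain of non-muscle myosin IIA, ranged from 38.3 to 103 CPM in the young and 29.9 to 66.5 CPM in the aged.

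The regulatory chains Myl12a and Myl12b are neighbours on chromosome 17 and 96.5% identical in coding sequence, so reads could be shared between them and their counts are uncertain. Myl12b stood at 354, 334 and 367 CPM in the young libraries, against 399, 415 and 565 in the aged, with no overlap and a log2 fold change of 0.39 (SE 0.29, adjusted p = 0.986, edgeR). With the GC trend of each library removed, its ages overlapped. With the reads of its other identifier added, which spans both genes, it stood at 541, 477 and 595 CPM in the young, against 704, 652 and 920 in the aged. The ages stayed apart, and the log2 fold change was 0.50 (SE 0.28). Myl12a stood at 447, 373 and 438 CPM in the young, against 693, 361 and 590 in the aged. Its aged library 2 was the lowest of the 6, and the log2 fold change was 0.38 (SE 0.32).

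Tropomyosins coat filaments and set which proteins can bind. Tpm3 stood at 235, 147 and 179 CPM in the young libraries, against 200, 417 and 294 in the aged, with aged library 1 inside the young range. Tpm4 stood at 2.66, 1.68 and 34.8 CPM in the young, against 27.9, 55.9 and 50.8 in the aged. Young library 3 lay within the aged range while the other young libraries were far under it, and the within-group SD of Tpm4 was 1.49 on the log2 scale. The coding sequences of the 2 genes were 73.7% identical. Vim, the gene of the intermediate filament vimentin, ranged from 5.96 to 27.2 CPM in the young libraries and 19.9 to 40.6 CPM in the aged.

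**Figure D3:**
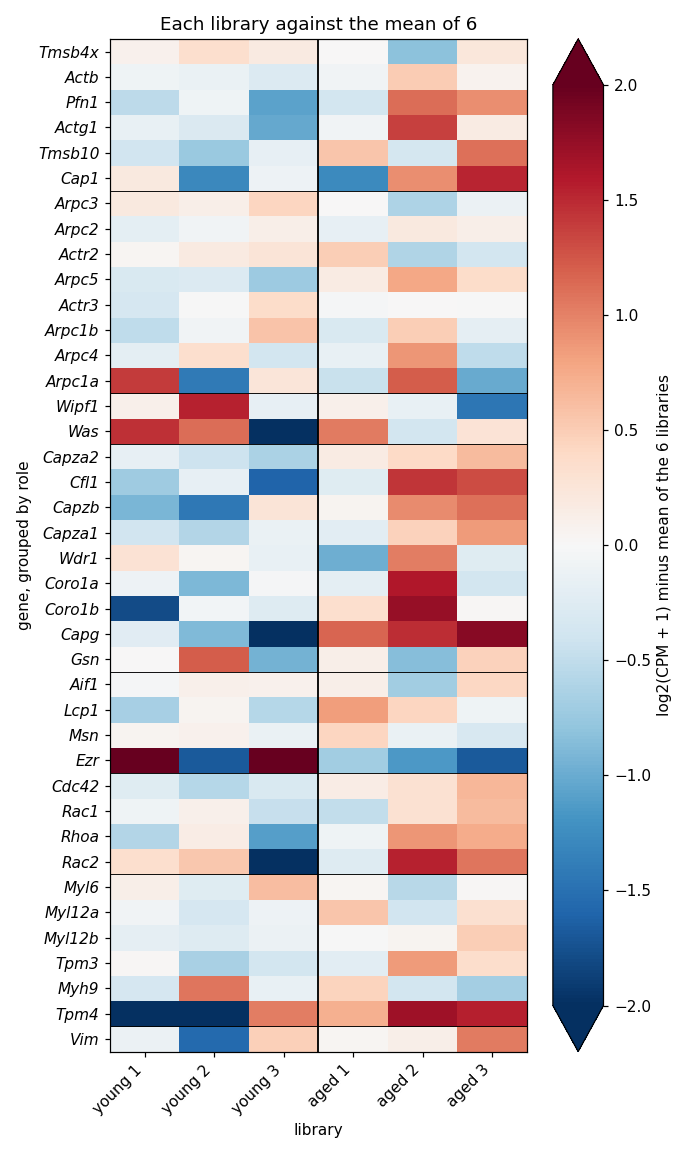
Log2(CPM + 1) of each of the 40 genes (rows, by role) in each of the 6 libraries (columns), less the mean of the 6, with colours ending at -2 and 2. Aged library 2 is red for Actg1, Cfl1, Coro1a and Coro1b and blue for Tmsb4x, Arpc3, Actr2 and Aif1.

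In mean TPM the order began with Tmsb4x at 27929, Actb at 4053, Aif1 at 3549, Myl6 at 856, Capza2 at 424 and Arpc3 at 410, and ended with Ezr at 1.02. Of neighbours in that order, Tmsb4x and Actb were apart in every library, as were Aif1 and Myl6. The libraries of every other neighbouring pair overlapped, so those places are not fixed. The effective length changed by over 1.5 times between libraries for 18 of the 40 genes and by less for 22. With CPM divided by the longest annotated transcript instead, Aif1 stood above Actb. In TPM, 10 of the 40 genes were higher in every aged library and 1 lower, beside 9.71% and 4.90% of all genes averaging 1 TPM or more.

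**Figure D4:**
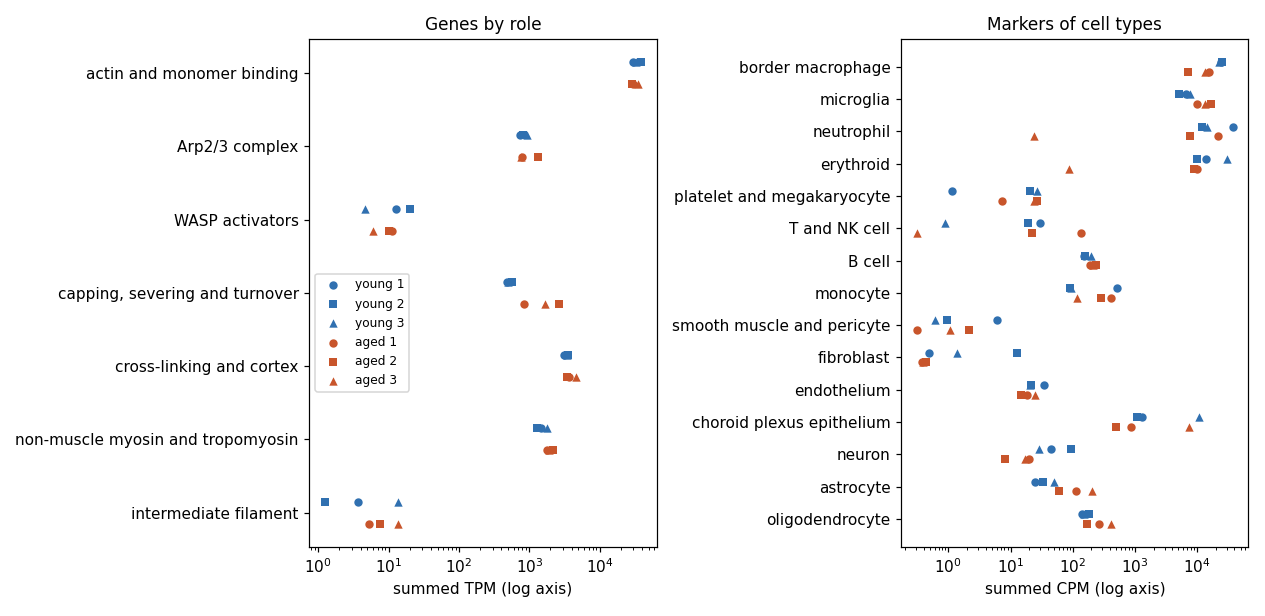
Left, summed TPM of the genes of 7 roles, and right, summed CPM of marker lists of 15 cell types, 1 point for each library on log axes. The capping, severing and turnover sum is 486 to 575 in the young libraries and 849 to 2602 in the aged, and the summed border macrophage markers are lower, and the summed microglia markers higher, in every aged library.

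The summed TPM of the roles showed where the ages parted. Capping, severing and turnover genes summed to 486, 575 and 495 TPM in the young libraries, against 849, 2602 and 1657 in the aged. This sum was apart between ages, with aged library 1 nearest to the young. The Arp2/3 complex summed to 728 to 919 TPM in the young and 768 to 1312 TPM in the aged, and overlapped.

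Aged library 2 held the highest CPM of the 6 for 13 of the 32 members averaging 50 CPM or more (40.6%), while it was highest for 13.7% of all 2189 genes at that level. It was the lowest for 6 of the 32 (18.8%), and for 35.6% of all such genes. Within groups, the 32 members varied by a median SD of 0.44 on the log2 scale, beside 0.54 for all genes at that level. The 4 genes with the largest spread were Was, Ezr, Rac2 and Tpm4, and those with the smallest were Arpc2, Myl12b, Actb and Cdc42. Guanine and cytosine content moved with the age difference. Over 2188 genes averaging 50 CPM or more, the log2 fold change had a Spearman correlation of 0.19 with the GC content of the transcript, and over the 32 members one of 0.20. These correlations are across genes that share libraries, and the part of GC content in the difference was not tested by them. With the GC trend of each library removed, the median of the 40 genes was 0.40, and 0 were called where 0.00939% of 10653 genes were called higher.

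Neutrophil markers ranged from 23.7 CPM in aged library 3 to 37448 CPM in young library 1 and overlapped between ages, and neutrophils too express actin genes. Erythroid markers summed to 10100 to 30313 CPM in the young and 85.8 to 9862 CPM in the aged. Smooth muscle and pericyte markers summed to only 0.313 to 6.02 CPM and platelet markers to 1.15 to 26.6 CPM. The sum of the 5 astrocyte markers was higher in every aged library, at 60.4 to 203 CPM against 25.1 to 49.6 CPM. Each of the 5 taken alone overlapped between ages. Neuron markers summed to 28.7 to 95.1 CPM in the young and 8.08 to 19.8 CPM in the aged. Of these 5 neuron markers, 3 were lower in every aged library and 2 overlapped. Choroid plexus markers were highest in young library 3, at 10679 CPM, and aged library 3, at 7507 CPM. Most of both sums was Ttr, at 10475 and 7270 CPM. Folr1 and Kcnj13 were also highest in these libraries. Kl and Clic6 were highest in young library 3 but not high in aged library 3. The part of these cells in the values of the 40 genes was not tested.

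The wider actin pathway was described from 135 other genes, of which 116 were tested. None was called by edgeR, 8 were higher and 2 lower at an unadjusted p under 0.05 (3.63% and 2.04% of all genes tested), and the median log2 fold change was 0.11. Without overlap between ages, 8 were higher and 4 lower, or 10.3% of the 116 in either direction, beside 14.7% of all genes tested. Hcls1, a cortactin relative of blood cells that acts with Arp2/3, stood at 11.1, 16.9 and 10.1 CPM in the young libraries, against 39.7, 142 and 86.0 in the aged, with a log2 fold change of 2.81 (SE 0.66, adjusted p = 0.515, edgeR). Abi3, a WAVE-complex protein whose gene is a known microglia marker, was taken for mention after its values were seen. It stood at 1.99, 1.86 and 5.72 CPM in the young, against 38.7, 146 and 39.6 in the aged, with the lowest adjusted p of the 116 at 0.378 by edgeR. The microglia marker sum was likewise higher in every aged library.

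Among turnover genes, Ssh2, a phosphatase that switches cofilin on, stood at 95.9, 87.4 and 91.0 CPM in the young libraries, against 177, 165 and 252 in the aged (log2 fold change 1.12, SE 0.35). Gmfg, which prunes Arp2/3 branches, stood at 1033, 1478 and 1165 CPM in the young, against 766, 334 and 799 in the aged (log2 fold change -0.95, SE 0.37). Neither overlapped between ages, and they lay in opposite directions. Tmod3, a cap of the slow-growing end, and Srgap2, a Rac GTPase-activating protein, were also higher in every aged library, with log2 fold changes of 0.65 (SE 0.53) and 0.91 (SE 0.47).

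In the remaining sublists, every gene averaging 50 CPM or more had overlapping ages. Of the 7 formins tested, the 2 most abundant were Diaph2, at 3.81 to 44.3 CPM in the young libraries and 7.62 to 71.5 CPM in the aged, and Fmnl3, at 12.4 to 15.9 CPM and 12.1 to 21.7 CPM. The cortex genes Plek and Rdx had log2 fold changes of -0.13 (SE 0.34) and -0.77 (SE 0.67), and the myosin regulators Rock1 and Ppp1cb 0.13 (SE 0.44) and 0.72 (SE 0.68). Among adhesion linkers, Ilk stood at 45.1, 37.7 and 28.4 CPM in the young, against 39.4, 188 and 173 in the aged, with aged library 1 inside the young range, and Skap2 had a log2 fold change of 0.44 (SE 0.39). The SRF cofactor genes Mrtfa and Mrtfb were low, at most 10.3 and 12.9 CPM in any library, with the ages overlapping.

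Of the 40 genes, 5 share a stretch of at least 200 bases at 95% identity or more with another gene in the tables. Myl12a and Myl12b match each other, and the matches of Actb, Tmsb10 and Tpm3 held at most 8.24% of the level of the member in any library. For 13 members there were also such matches to annotated genes outside the tables, 28 in all, whose reads cannot be seen. Actg1 had 8 of them and Cfl1 1. Estimated counts were fractional in at least 1 library for 17 of the 40, and in all 6 for Actg1, Cfl1, Rac1 and Rhoa, among others. Of the 40, 8 members, Myl12a among them, overlap a tested gene on the opposite strand, so their reads cannot be told apart there. The partner held more reads than the member for Cap1 and Coro1a.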

How the data were processed

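Per the labels' protocols, about 500 pg of total RNA per library was turned into cDNA by template switching, amplified over 13 PCR cycles, tagmented and read from 1 end. The kit keeps no record of the strand. The submitters' processing notes name bcl2fastq 2.20, FastQC, fastp, DRAGEN, Picard and mm10, while what each did, and with which annotation, is not given in the sources used here. Per the file headers, the deposited tables hold estimated counts per gene, which are not scaled to depth, TPM, which the authors scaled to depth and effective length, and that effective length.

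Estimated counts were rounded to whole numbers. Of 35598 identifiers, 35513 matched GENCODE M21, which gave symbols and coordinates. Genes were filtered with filterByExpr by age group, scaled by TMM and compared, aged against young, with edgeR 4.0.16 in R 4.3.3 (robust quasi-likelihood F test, two-sided, no covariate, Benjamini-Hochberg adjustment over 10661 genes, called under 0.05). The SE was derived from the F statistic and the log2 fold change. Alternatives used limma 3.58.1 and DESeq2 1.42.0. An exact permutation test of 3 against 3 libraries cannot go below 0.1 and was not used. Within-group SD is of log2(CPM + 1). Totals of 26605079 to 33306121 counts make 3 counts equal to 0.0777 to 0.112 CPM, and this floor covers counting error only, since PCR copies without molecular identifiers are not independent molecules.

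The 40 genes and all lists were chosen with earlier results of these data known. Values per library were given for members without overlap between ages, the 6 with the highest mean TPM, 9 pairs of related genes, and the 4 with the largest and the 4 with the smallest spread. Pfn1, Cfl1, Capzb, Lcp1, Rhoa, Wipf1 and Abi3 were added after their values were seen. Of the other pathway genes, up to 3 in a sublist without overlap and averaging 50 CPM or more were named, or else the 2 most abundant. Promoters are RefSeq sequences of GRCm38.p6, the same assembly as mm10. Coding sequences from GENCODE M21 were compared in place of the planned proteins, and alignment of transcripts used BLAST 2.17.0. The scripts were tested on simulated data. Some results for 1 role are not reported here.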

Additional observations from a re-analysis of the deposited data

How the results depend on the processing

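The count of the 40 genes called higher was 0 in the reported fit and 1 under the DESeq2 Wald test and without the low-count filter, Cfl1 each time, and none was called lower under any setting. With 1 library left out at a time, 0 were called, the median log2 fold change was 0.36 to 0.53, and the members without overlap numbered 9 to 18 higher and 1 to 4 lower. The largest numbers, 18 and 4, came without aged library 1, beside 14.1% and 13.35% of all genes. They were 11 and 2 without aged library 2 (11.2% and 12.9%), 13 and 2 without young library 3 (12.4% and 12.3%) and 12 and 3 without young library 2 (11.9% and 12.2%). Without young library 1 there were 9 and 1 (12.1% and 12.4%), and without aged library 3 there were 9 and 2 (12.8% and 11.8%). With 2 libraries against 3, fewer libraries have to lie apart. The replicate block gave a median of 0.47 and 0 calls. Same-numbered libraries did not deviate together (correlations of -0.00638, 0.00247 and 0.035 across genes). Such correlations cannot exclude that libraries with the same number shared a batch. The median was 0.38 to 0.52 under the other count settings, with the GC-adjusted fit, chosen after seeing the data, at 0.40, and 0.31 when the block was added to it. On log2(TPM + 1) the median was 0.78, where that of all genes was 0.22. Without aged library 1 the median of all genes was -0.11. Without overlap there were 8 higher and 1 lower without the low-count filter, beside 7.80% and 6.87% of all genes tested. When only genes averaging 50 CPM or more set the scaling, 6 of the 32 such members were higher and 1 lower. The shares beside these were 7.67% and 7.06% of all genes tested, which include genes of lower level. Voom and the block use the reported scaling and the DESeq2 Wald test the size factors tried in edgeR, so they give no value of their own. Of 633 single-gene values over the settings, 613 lay within 1 within-group SD of the reported one. Most settings refit the same counts, so their closeness says little. The 20 beyond it included Actb, Arpc1b, Arpc2, Actr3, Capza2, Capzb and Ezr on log2(TPM + 1). Msn, Rac1, Rac2, Rhoa, Cdc42 and Myl12b also lay beyond it on that scale. The sign held in every setting for 28 genes and turned in at least 1 for 12: Actb, Actr2 (on TPM), Arpc4 (without aged library 2), Aif1 (on TPM and without aged library 2), Arpc1a, Arpc1b, Actr3, Was, Gsn, Wdr1, Msn and Myh9. The cause was not tested. Was, Capg and Ezr each had a library of 3 counts or fewer, so their fold changes are uncertain, and the reason for the low counts was not tested.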
